A study of Mus musculus with 4 samples.

Results

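The PGC-1 and NRF regulators of mitochondrial biogenesis were followed in hippocampal RNA as a set of 9 genes, chosen by symbol from the 29300 genes of the deposited count table. The set held the coactivators Ppargc1a, Ppargc1b and Pprc1, the DNA-binding factors Nrf1, Gabpa and Esrra, and the mitochondrial factors Tfam, Tfb1m and Tfb2m. Each symbol matched 1 row. Hippocampi came from male C57BL/6 mice aged 7 to 8 months, on day 1 after the procedure. The control mice (sham, n = 2) received isoflurane anesthesia and tramadol, and the PND mice (surgery, n = 2) received the same anesthesia and analgesia followed by an open tibial fracture that was fixed with an intramedullary nail. PND stands for perioperative neurocognitive disorder. The comparison asked whether the transcripts of these regulators differed between the groups at the time when transcripts of respiratory complex subunits were measured.

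Mitochondria are built from proteins of both genomes, and the PGC-1 coactivators are known to couple outside signals to that process. A coactivator binds no DNA by itself. It is brought to promoters by factors such as nuclear respiratory factor 1 (NRF-1), GA-binding protein (GABP, also called NRF-2) and the estrogen-related receptor ERRα, which act on nuclear genes of the respiratory chain. The same factors are known to act on the genes of TFAM, TFB1M and TFB2M, which enter the mitochondrion and serve the transcription and upkeep of mitochondrial DNA. In neurons, PGC-1α is best known from parvalbumin interneurons.

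The libraries held 15763432 to 18573386 counts. Whole-hippocampus RNA is a mixture, so that fewer cells of a type and less RNA per cell cannot be told apart. All 8 hippocampal and all 8 neuronal markers were detected, with summed levels of 1120 to 1260 CPM (counts scaled to a common library size, after TMM) and 9670 to 11300 CPM. The 6 choroid plexus markers summed to 128 CPM in control mouse 1, 5430 CPM in control mouse 2, 2040 CPM in PND mouse 1 and 3450 CPM in PND mouse 2, a spread that did not follow the groups. The part of these cells in the values below was not tested. Mitochondrial transcripts that encode proteins took 2.52% to 2.82% of the counts in control mice and 4.44% to 4.48% in PND mice. Without the mitochondrially encoded genes in the fit, each of the 9 regulators kept its direction and its side of the threshold.

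All 9 regulators passed the expression filter, and in PND mice 3 of them were higher and 1 lower at an adjusted p under 0.05 by edgeR's quasi-likelihood test. Among the 17144 genes tested, 13.1% were called higher, 12.8% lower and 26.0% in either direction by the same rule. At an unadjusted p under 0.05 the counts were 4 higher and 2 lower, against 19.9% and 19.4% of all genes. The 3 that rose were Gabpa, Tfb2m and Ppargc1a, and the 1 that fell was Esrra. DESeq2 called 3 higher and 1 lower among the 9, against 10.7% and 12.3% of all genes. When the study's fold thresholds (1.5 upward, 0.67 downward) were added, 2 of the 9 were called higher (6.75% of all genes) and 0 lower (2.25%). With the trends of each library with transcript GC content and length removed, edgeR called 0 in either direction, where 0.491% of all genes were called higher and 1.06% lower. In that fit 4 regulators with a positive and 2 with a negative change had an unadjusted p under 0.05, against 7.46% and 14.5% of all genes. The median log2 fold change of the 9 was 0.29, against 0.01 over all genes tested, and 0.14 against -0.04 with the trends removed. The median of the 9 was 0.18 without PND mouse 2 and 0.40 without PND mouse 1.

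**Figure D1:**
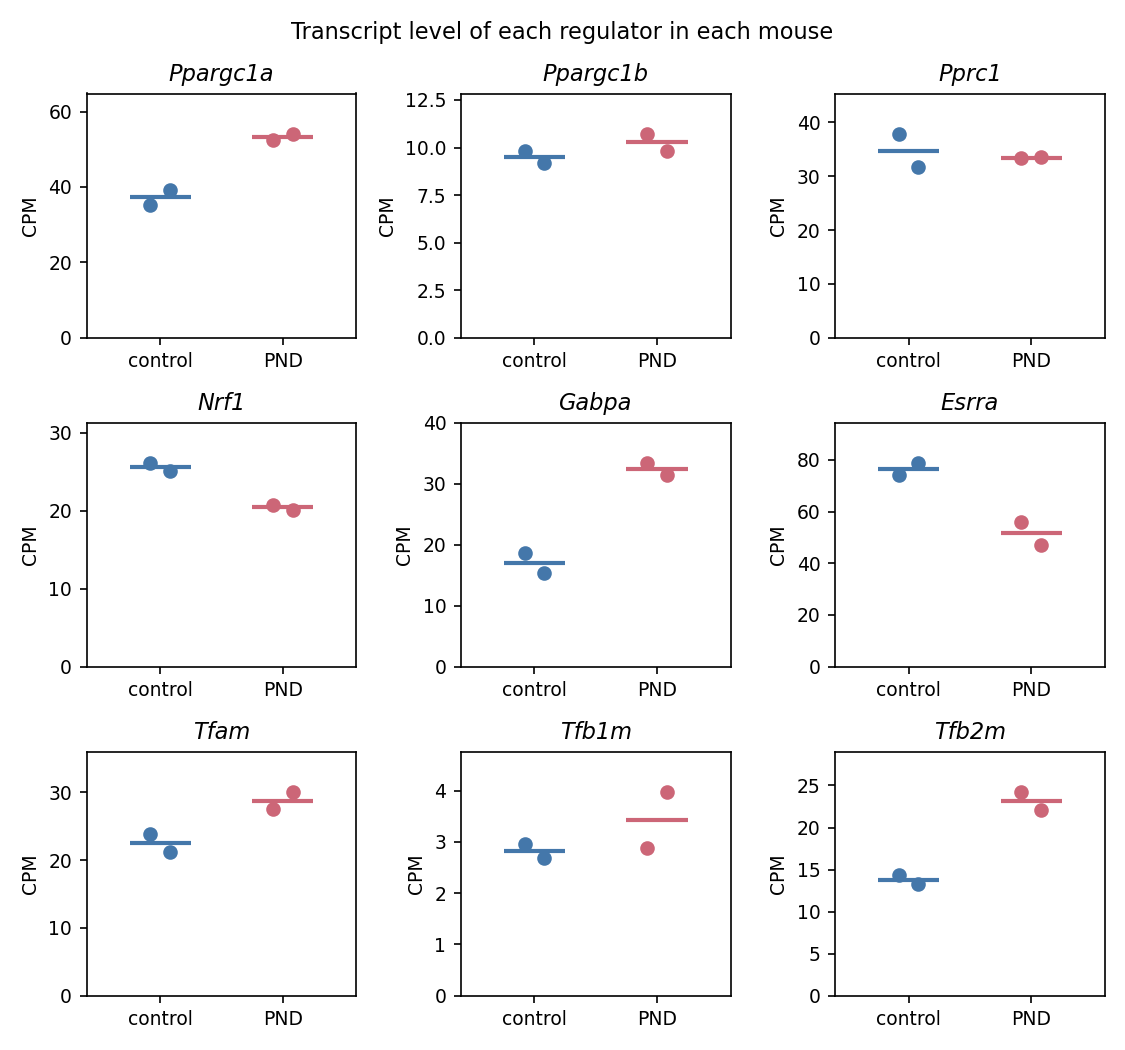
Level of each regulator in CPM (linear axes from 0), with 1 point per mouse and a bar at the mean of the 2 mice of a group. Ppargc1a, Gabpa, Tfam and Tfb2m lay above both control mice in each PND mouse, Ppargc1b did so by less than 1 CPM at the nearest mice, Nrf1 and Esrra lay lower in both, and Pprc1 and Tfb1m overlapped. Of all genes tested, 33.2% lay above and 32.2% below both control mice in both PND mice.

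Among the coactivators, Ppargc1a rose and neither Ppargc1b nor Pprc1 passed the test. Ppargc1a (ENSMUSG00000029167) encodes PGC-1α, the founding member of the family, on mm10 chromosome 5 (51454250 to 51567726, minus strand). It had 35.1 and 39.3 CPM in the control mice and 52.5 and 54.0 CPM in the PND mice, from 605 to 911 counts per library. Both PND mice lay above both control mice, as did 33.2% of all genes tested. The mean rose from 37.2 ± 2.98 to 53.3 ± 1.01 CPM (SD, n = 2 per group), a log2 fold change of 0.52 ± 0.09 (SE) (adjusted p = 0.0094, edgeR quasi-likelihood test with Benjamini-Hochberg adjustment). Its fold change of 1.43 was under the threshold of 1.5. With the GC and length trends removed, the log2 fold change was 0.24 with a 95% confidence interval of 0.02 to 0.46 (adjusted p = 0.20 by the same edgeR test).

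Ppargc1b (ENSMUSG00000033871) encodes PGC-1β, a relative of PGC-1α that also coactivates NRF-1 and the ERR receptors, and lies on mm10 chromosome 18 (61298136 to 61400431, minus strand). Its level was 9.81 and 9.19 CPM in the control mice and 10.7 and 9.84 CPM in the PND mice. The second PND mouse was within 1 CPM of both control mice. The change was 0.11 on the log2 scale with a 95% confidence interval of -0.25 to 0.47 (adjusted p = 0.62, edgeR), and 0.38 with an interval of 0.00 to 0.76 once the trends were removed. With 1 mouse left out it ran from 0.04, without PND mouse 1, and 0.06, without control mouse 2, to 0.18, without PND mouse 2.

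Pprc1 (ENSMUSG00000055491) encodes PRC, a coactivator of NRF-1 that is induced when cells enter the cycle, on chromosome 19 (46044886 to 46072915, plus strand). It had 37.8 and 31.7 CPM in the control mice and 33.4 and 33.5 CPM in the PND mice, which lay between the control values. The log2 fold change of -0.05 had a 95% confidence interval of -0.32 to 0.21, and it was 0.07 without the first control mouse and 0.14 with the trends removed. Its exons overlap those of Ldb1 on the opposite strand over 177 bases.

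Nrf1 (ENSMUSG00000058440) did not pass the threshold, with lower levels in both PND mice. The gene encodes NRF-1, which acts on promoters of nuclear respiratory genes and is a different protein from the stress factors encoded by Nfe2l1 and Nfe2l2. It lies on chromosome 6 (30047988 to 30153458, plus strand). The control mice had 26.1 and 25.1 CPM and the PND mice had 20.8 and 20.1 CPM. The groups did not overlap, in the direction in which 32.2% of all genes did not. The mean was 25.6 ± 0.674 CPM in control and 20.4 ± 0.473 CPM in PND mice (SD, n = 2 per group). The log2 fold change was -0.33 with a 95% confidence interval of -0.56 to -0.09 (unadjusted p = 0.015, adjusted p = 0.055, edgeR). It was -0.30 with the GC and length trends removed (adjusted p = 0.17, edgeR), so that Nrf1 was the member for which this step moved the estimate least. With the length trend alone removed, an alternative chosen after the data were seen, Nrf1 was at -0.42 and passed (adjusted p = 0.032, edgeR).

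Gabpa (ENSMUSG00000008976) had the largest change of the 9. It encodes the DNA-binding α subunit of GABP, an ETS-family factor that acts on cytochrome oxidase genes, on chromosome 16 (84834925 to 84863779, plus strand). Its level was 18.6 and 15.4 CPM in the control mice and 33.4 and 31.5 CPM in the PND mice. The lowest PND mouse was well above the highest control mouse. This was 0.93 ± 0.12 (SE) on the log2 scale, a fold change of 1.90 (adjusted p = 0.0054, edgeR). Its exons overlap those of Atp5j, a subunit gene of the ATP synthase, on the opposite strand over 397 bases. Atp5j itself had 74.7 and 72.5 CPM in the control mice and 71.8 and 71.3 CPM in the PND mice, a log2 fold change of -0.04 with a 95% confidence interval of -0.20 to 0.12. Without the GC and length trends, Gabpa was at 0.44 with an interval of 0.14 to 0.74 (adjusted p = 0.11, edgeR). In the fit that also held the replicate number as a block, Gabpa was the 1 regulator called (adjusted p = 0.022, edgeR), where 4.27% of all genes were called higher and 9.75% lower.

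Esrra (ENSMUSG00000024955) encodes ERRα, an orphan nuclear receptor that recruits PGC-1 coactivators to genes of the citric acid cycle and the respiratory chain. It lies on chromosome 19 (6910977 to 6921813, minus strand) and was the 1 member that fell. The control mice had 74.0 and 78.7 CPM and the PND mice had 56.1 and 47.0 CPM, so that both PND mice were below both control mice. The mean went from 76.3 ± 3.29 to 51.5 ± 6.41 CPM (SD, n = 2 per group), a log2 fold change of -0.57 ± 0.10 (SE) (adjusted p = 0.010, edgeR). Its fold change of 0.675 lay just above the threshold of 0.67. Esrra overlaps exons of Trmt112 over 73 bases on the opposite strand, and Mir6990 over 91 bases on its own strand. With the trends removed it was at -0.28 with a 95% confidence interval of -0.53 to -0.03 (adjusted p = 0.18, edgeR).

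Among the factors that act on mitochondrial DNA, Tfb2m rose, and Tfam and Tfb1m did not pass. Tfam (ENSMUSG00000003923) encodes the protein that packages mitochondrial DNA and bends it at its promoters, on chromosome 10 (71225464 to 71238280, minus strand). Its level was 23.9 and 21.2 CPM in the control mice and 27.5 and 30.0 CPM in the PND mice, without overlap. The log2 fold change was 0.35 with a 95% confidence interval of 0.09 to 0.62 (unadjusted p = 0.016, adjusted p = 0.058, edgeR). Scaled by library totals only, it passed (0.40, adjusted p = 0.039), and with the GC and length trends removed it was at 0.02 with an interval of -0.23 to 0.27.

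Tfam was the 1 regulator with a match among the motifs searched in promoters, and its site is shown because GABP, whose α subunit is encoded by Gabpa, binds the ETS motif CCGGAAGT. The RefSeq promoters (GRCm38.p6, 250 bases before to 50 after a gene's start) covered 8 of the 9 regulators in 9 promoters. The match begins 47 bases before the RefSeq start of Tfam (71238044), in the window chr10:71238074-71238101 on the minus strand. The deposited table starts the gene further upstream, at 71238280, so that by its annotation the motif begins 189 bases inside the gene, and 1 GENCODE transcript of Tfam holds the window as exon. The window is given 5′ to 3′ with the motif in capitals.
Tfam: ctgccgcggaCCGGAAGTccgggcttcc
On either strand, CCGGAAGT occurs in 3.89% of 32851 mouse promoters of this length. The other motifs were that of NRF-1, a pair of GCGC blocks with 2 bases of any kind between them (6.23% of promoters), TNAAGGTCA for ERR (1.28%) and TGACGTCA for the cyclic AMP response element (1.79%), and none of the 9 promoters held these letters.

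Tfb1m (ENSMUSG00000036983) encodes a methyltransferase of mitochondrial ribosomal RNA and lies on chromosome 17 (3519263 to 3557713, minus strand, in the authors' annotation). It had the fewest counts of the set, 46 to 67 per library. Its level was 2.96 and 2.68 CPM in the control mice and 2.88 and 3.97 CPM in the PND mice, and the first PND mouse lay between the control mice. The change was 0.29 on the log2 scale with a 95% confidence interval of -0.36 to 0.94, which holds both 0 and the change seen in Ppargc1a. The log2 fold change of Tfb1m was 0.04 without the second PND mouse and 0.48 without the first. Its exons overlap those of Tiam2 on the opposite strand over 142 bases, and Tiam2 had 27.5 to 36.3 CPM.

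Tfb2m (ENSMUSG00000026492) encodes the factor that melts the promoter for the mitochondrial RNA polymerase, on chromosome 1 (179528055 to 179546267, minus strand). The control mice had 14.3 and 13.3 CPM and the PND mice had 24.2 and 22.1 CPM. Both PND mice stood apart from both control mice. This was 0.74 ± 0.12 (SE) on the log2 scale, a fold change of 1.67 (adjusted p = 0.0076, edgeR). Of the 75-base windows of its transcripts, 29.6% also occur in Gm1818, so reads could be split between these genes. Gm1818 held 18 and 17 counts in control mice and 42 and 24 counts in PND mice, against 244 to 386 counts per library for Tfb2m. With the trends removed, Tfb2m was at 0.35 with a 95% confidence interval of 0.05 to 0.65 (adjusted p = 0.17, edgeR).

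**Figure D2:**
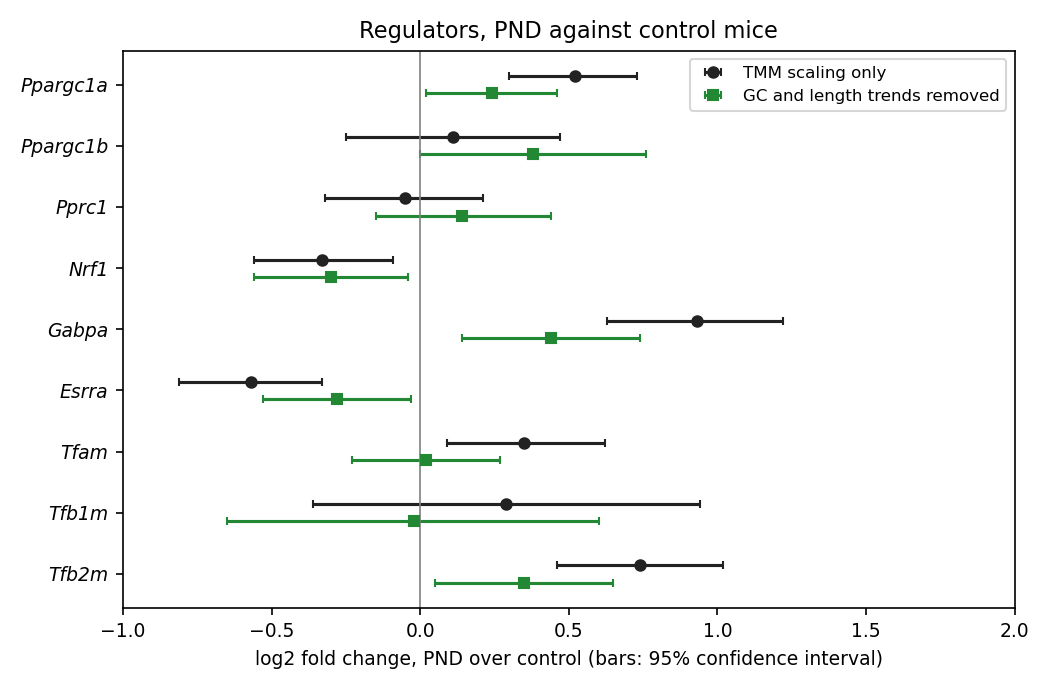
Log2 fold change of PND over control mice for each regulator (n = 2 mice per group), with its 95% confidence interval, from the edgeR fit with TMM scaling only (circles) and with the GC and length trends of each library removed (squares). The squares of Ppargc1a, Gabpa, Esrra, Tfam, Tfb1m and Tfb2m lie nearer to 0 than the circles, and those of Nrf1 differ by 0.03. The squares of Ppargc1b (0.38, circle at 0.11) and Pprc1 (0.14, circle at -0.05) lie further from 0.

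The regulators with the lowest GC content had the highest changes. Over all genes tested, the log2 fold change fell as GC content rose (Spearman's rho of -0.64 as a description across genes, which share the same 4 libraries and are no replicates). Tfb2m (43.30% GC), Tfam (44.42%), Tfb1m (44.68%), Gabpa (41.94%) and Ppargc1a (45.49%) were the 5 regulators under 46% GC, and these had the 5 highest log2 fold changes of the set. Esrra, with the highest GC content at 58.42%, had the lowest change. Gabpa lay 0.33 above the median of all genes in its eighth of GC content (0.60), Tfb2m 0.43 above its median (0.31) and Ppargc1a 0.34 above its median (0.18), all on the log2 scale. Tfam and Tfb1m lay 0.04 above and 0.02 below the median of their eighth. Esrra lay 0.23 below its median (-0.34), Nrf1 0.25 below its median (-0.08), and Ppargc1b 0.45 and Pprc1 0.20 above theirs. When the GC trend alone was removed, an alternative chosen after the data were seen, 0 of the 9 were called by edgeR, where 0.689% of all genes were called higher and 1.76% lower. At an unadjusted p under 0.05 there were 4 higher and 2 lower in that fit, against 7.44% and 15.0% of all genes. When the length trend alone was removed, 3 of the 9 were called higher and 2 lower, against 8.91% and 16.4% of all genes.

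**Figure D3:**
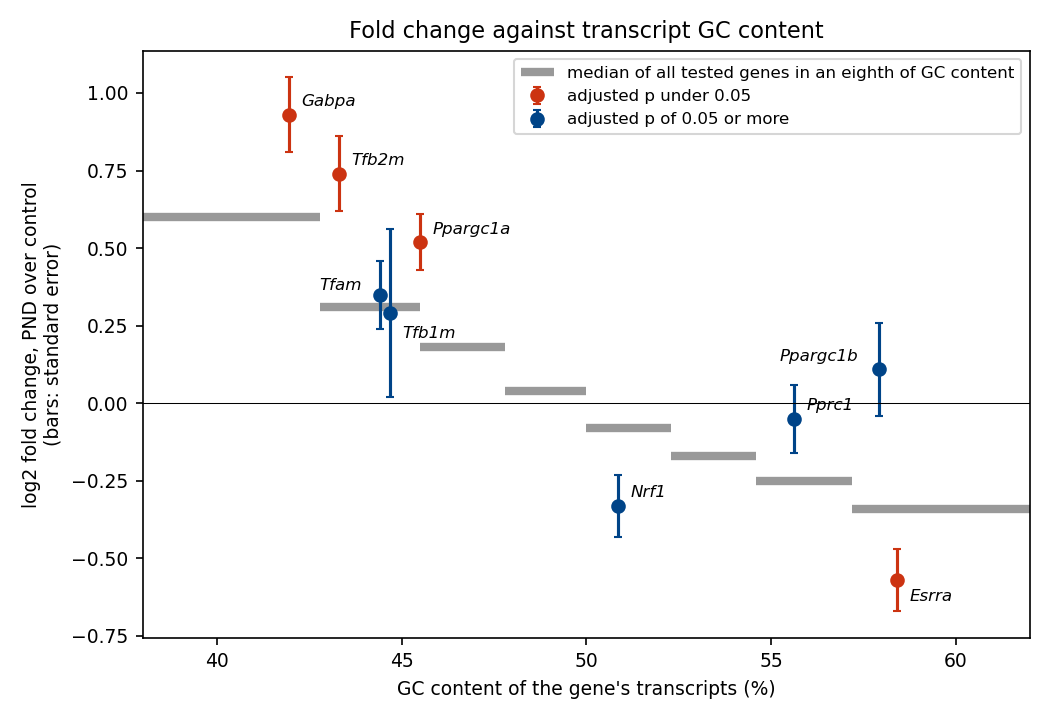
Log2 fold change of PND over control mice against the GC content of each regulator's transcripts, with standard errors as bars. Grey lines mark the median log2 fold change of all tested genes in each eighth of GC content, from 0.60 in the lowest to -0.34 in the highest, the outermost eighths being drawn only within the axis.

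Esrra was the most abundant regulator per length. In CPM per kilobase of the longest transcript, its levels ran from 18.9 to 31.6 over the 4 mice, above every value of the other 8. Tfb2m (5.45 to 9.88), Ppargc1a (5.43 to 8.35), Pprc1 (6.05 to 7.20), Tfam (5.09 to 7.21), Nrf1 (4.97 to 6.45) and Gabpa (3.09 to 6.69) followed, and each of these neighbours in the order overlapped the next. Ppargc1b (2.51 to 2.93) and Tfb1m (1.11 to 1.64) were lowest and overlapped no other regulator. With the union of all exons as the length, Esrra stayed in place 1 with a mean of 14.6 in place of 25.7, and Nrf1 moved from a mean of 5.69 to 2.24 and from place 6 to place 8.

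**Figure D4:**
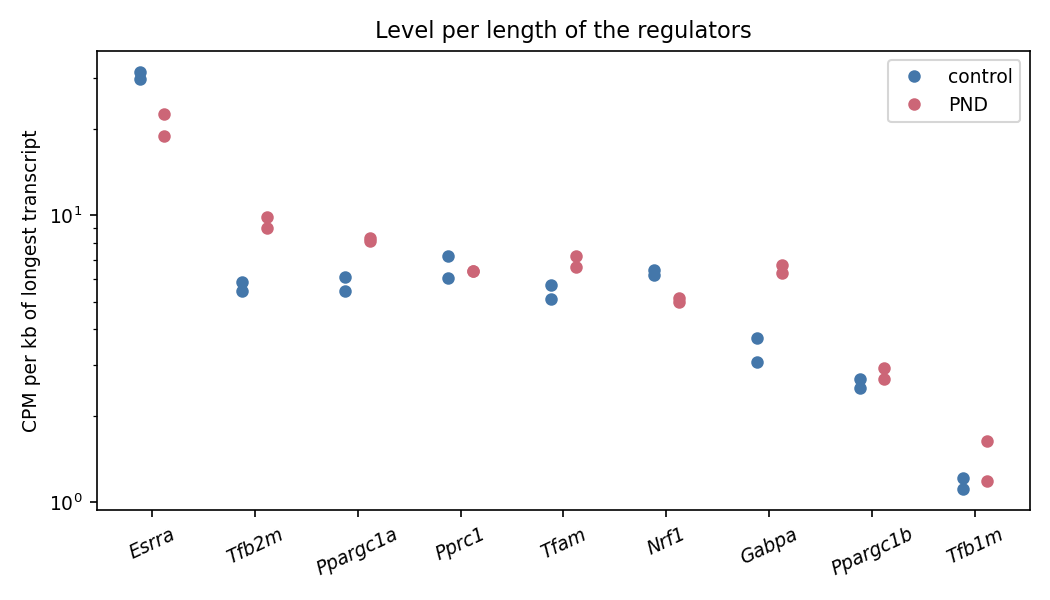
Level of each regulator in CPM per kilobase of its longest transcript, on a log axis, with 1 point per mouse. Esrra lies above the other 8 in every mouse (18.9 to 31.6), and Ppargc1b and Tfb1m lie lowest.

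Ratios of these levels, which carry the GC and length trends of each library, were taken between pairs of genes within a mouse. The ratio of Ppargc1a to Ppargc1b was 2.02 and 2.42 in control mice against 2.77 and 3.10 in PND mice, and that of Ppargc1a to Pprc1 was 0.754 and 1.01 against 1.28 and 1.31. For Esrra against Esrrg, which encodes the related receptor ERRγ, it was 9.83 and 10.5 in control mice and 6.80 and 5.25 in PND mice. Gabpa relative to Gabpb1, which encodes a β subunit of GABP, was at 0.935 and 0.821 in control mice and 1.34 and 1.13 in PND mice. The ratio of Tfb2m to Tfb1m was 4.78 and 4.92 in control mice and 8.29 and 5.50 in PND mice. None of these 5 ratios overlapped between the groups. For single genes, the levels of 33.2% in the higher and 32.2% in the lower direction did not overlap, and no such share was taken over pairs of genes. With 2 mice against 2 an exact permutation test cannot give a p under 0.333. In the fit without the trends, the order of Ppargc1a and Ppargc1b turned round, with log2 fold changes of 0.24 and 0.38. Esrra and Esrrg then differed little, at -0.28 and -0.19. Ppargc1a and Pprc1 were at 0.24 and 0.14 on that scale, Gabpa and Gabpb1 at 0.44 and 0.14, and Tfb2m and Tfb1m at 0.35 and -0.02.

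The signals that lead to PGC-1α were read from a list of 16 genes for kinases, a deacetylase, an acetyltransferase, a methyltransferase, transcription factors, coactivators and corepressors. Of these, 8 rose and 4 fell in PND mice at an adjusted p under 0.05 (edgeR), at a median log2 fold change of 0.34, where 13.1% of all genes rose and 12.8% fell. Without control mouse 2 or PND mouse 2, 2 genes of the list were called lower. Creb1, whose product binds the cyclic AMP response element, rose from 29.7 and 29.8 CPM to 54.4 and 57.5 CPM, a log2 fold change of 0.91 ± 0.08 (SE). Mef2c, a neuronal MADS-box factor, rose by 0.59 (0.07), and Crtc1, a coactivator of CREB, fell by 0.44 (0.05) on the same scale. With the GC and length trends removed, 0 of the 16 were called (edgeR), and the median was -0.05. In that fit 3 higher and 3 lower ones had an unadjusted p under 0.05, against 7.46% and 14.5% of all genes.

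Among 22 partner factors of the regulators, 4 were higher and 3 were lower (edgeR), near the shares of all genes (13.1% and 12.8%), with a median of 0.01. The genes of both β subunits of GABP were among those called higher, close to the threshold. Gabpb1 had 16.6 and 15.6 CPM in control and 20.8 and 23.3 CPM in PND mice, a log2 fold change of 0.45 ± 0.12 (SE) with an adjusted p = 0.035 (edgeR). Gabpb2 had a log2 fold change of 0.29 (0.08, adjusted p = 0.047). Neither call held by DESeq2 (adjusted p = 0.070 and 0.099), and only that of Gabpb1 without PND mouse 1 (0.040) held when a mouse was left out. Without control mouse 1, control mouse 2 or PND mouse 2, 0 partner factors were called higher, and without PND mouse 1 there were 2. With the trends removed, Gabpb1 was at 0.14 and Gabpb2 at 0.02. The 3 genes that fell encode nuclear receptors and a cofactor. Thra, a thyroid hormone receptor, fell by 0.61, Rxrb, a retinoid X receptor, by 0.55, and Hcfc1, a host cell factor that binds PGC-1 coactivators, by 0.38 on the log2 scale. After the same step, 0 of the 22 were called (edgeR), and 2 higher and 3 lower ones had an unadjusted p under 0.05, near the shares of all genes (7.46% and 14.5%).

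The machinery that works with TFAM and TFB2M on mitochondrial DNA had genes called in both directions, where 13.1% of all genes were called higher and 12.8% lower. Of 12 tested genes of mitochondrial transcription and RNA handling, 2 were higher and 3 were lower, and of 16 genes of mitochondrial DNA replication and nucleotide supply, 1 was higher and 2 were lower (edgeR). The thirteenth transcription gene, Slirp, did not pass the expression filter. Polrmt, the mitochondrial RNA polymerase that TFB2M serves, fell from 50.6 and 53.9 CPM to 40.8 and 39.6 CPM, a log2 fold change of -0.38 ± 0.08 (SE). Mrpl12, a ribosomal protein that also binds this polymerase, fell by 0.73 (0.12), Elac2, a nuclease that processes mitochondrial tRNA, fell by 0.46 (0.10), and Mterf3, which encodes a factor of the MTERF family, rose by 0.78 (0.13). For replication, Rrm2b, a ribonucleotide reductase subunit, rose by 0.74, Lonp1, the protease that degrades TFAM, fell by 0.51, and Polg, the DNA polymerase, fell by 0.26. Polg lost its call without any 1 mouse (adjusted p = 0.071 to 0.14, edgeR). Polrmt and Elac2 lost theirs without control mouse 2 (0.081 and 0.059) and without PND mouse 2 (0.067 and 0.064), which left 1 transcription gene called lower in each case. After removal of the trends, 0 of these 28 genes were called (edgeR), 1 higher and 4 lower ones had an unadjusted p under 0.05 (7.46% and 14.5% of all genes), and the medians of both lists were near 0, at -0.02 and -0.05.

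Transcripts of the mitochondrial genome, the template of TFAM, TFB2M and POLRMT, were higher in PND mice. Of the 12 protein-coding ones in the table, 11 passed and none was lower, at a median log2 fold change of 1.09. Over all genes 13.1% were called higher, and in the lowest eighth of GC content, which holds all 12, 50.2% were. The complex I subunit mt-Nd6, which is encoded on the strand opposite to the other 11, went from 144 and 109 CPM in control mice to 483 and 577 CPM in PND mice, a log2 fold change of 2.06 ± 0.15 (SE). The libraries were made from poly(A) RNA, and the use of strand is not given in the sources used here. Reads of the opposite strand may be among the counts of mt-Nd6, which was not tested. The complex I subunit mt-Nd1 rose by 1.03 and the complex IV subunit mt-Co2 by 1.15. The level of mt-Co2 was low, at 29.0 to 72.8 CPM against 11600 to 19700 CPM for mt-Co1. Also low were mt-Co3 (16.3 to 50.4 CPM), mt-Atp6 (7.28 to 23.3 CPM), mt-Nd3 (0.875 to 4.68 CPM) and mt-Nd4l (0.821 to 1.84 CPM). Sequence shared with other genes was not examined for the mitochondrial transcripts. All 12 were among the lower GC contents, from 33.05% to 41.08%. With the trends removed, 1 was called higher (mt-Nd6, 0.74) and 1 lower (mt-Nd4, -0.55), against 0.491% and 1.06% of all genes, and the median was 0.12. In that fit 2 higher and 3 lower ones had an unadjusted p under 0.05, against 7.46% and 14.5% of all genes. With the replicate block added, 3 were called higher and 3 lower, against 4.27% and 9.75%.

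Among the genes that NRF-1, GABP and ERRα are known to act on, the calls were in the lower direction, where 12.8% of all genes were called lower and 13.1% higher. Of 17 NRF-1 and GABP target genes, 8 were lower and 0 were higher (edgeR, with 1 higher at an unadjusted p under 0.05, 1 called without PND mouse 2 or with the replicate block, and 0 higher by DESeq2), at a median log2 fold change of -0.17. The cytochrome oxidase subunits Cox4i1 (-0.73), Cox6a1 (-0.65) and Cox8a (-0.58) had the lowest p-values. The study had picked these 3 and Cox7c as lower in the same libraries, and also reported them lower by qPCR. Of 11 ERRα target genes, 6 were lower and 0 were higher (edgeR, with 1 higher at an unadjusted p under 0.05, 1 called with library totals only, and 0 higher by DESeq2), with a median of -0.29. These included Mdh2 (-0.51) and Idh3b (-0.39), which encode enzymes of the citric acid cycle. After removal of the trends, 3 of the 17 (Cox4i1, Cox7c and Sdhd) and 3 of the 11 (Sdha, Atp5b and Fh1, the last of which had not passed before) were called lower, against 1.06% of all genes, and the medians were -0.35 and -0.33.

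Of 13 neuronal and antioxidant genes that depend on PGC-1α, 1 was higher and 4 were lower (edgeR), with a median of -0.25, against 13.1% and 12.8% of all genes. The gene that rose was Pvalb, the calcium-binding protein of the interneurons in which PGC-1α is best known, with 15.1 and 12.8 CPM in control and 23.1 and 20.7 CPM in PND mice (log2 fold change 0.65, standard error 0.13). Without control mouse 2 it was at 0.53 and did not pass (adjusted p = 0.070, edgeR). Cplx1, a regulator of vesicle fusion, fell by 0.38, the thioredoxin Txn2 by 0.49 and the peroxiredoxin Prdx5 by 0.53. Syt2, the vesicle calcium sensor of the same interneurons, also fell, by 0.51. Sod2 and Cat, which encode superoxide dismutase and catalase, were at 0.15 and -0.09 and did not pass. Once the trends were removed, 0 of the 13 were called (edgeR), and 2 higher and 4 lower ones had an unadjusted p under 0.05, against 7.46% and 14.5% of all genes. Pvalb was then at 0.60 and Syt2 at -0.42 (adjusted p = 0.078 and 0.085, edgeR), and with the replicate block in that fit both were called (0.013 and 0.0094).

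**Figure D5:**
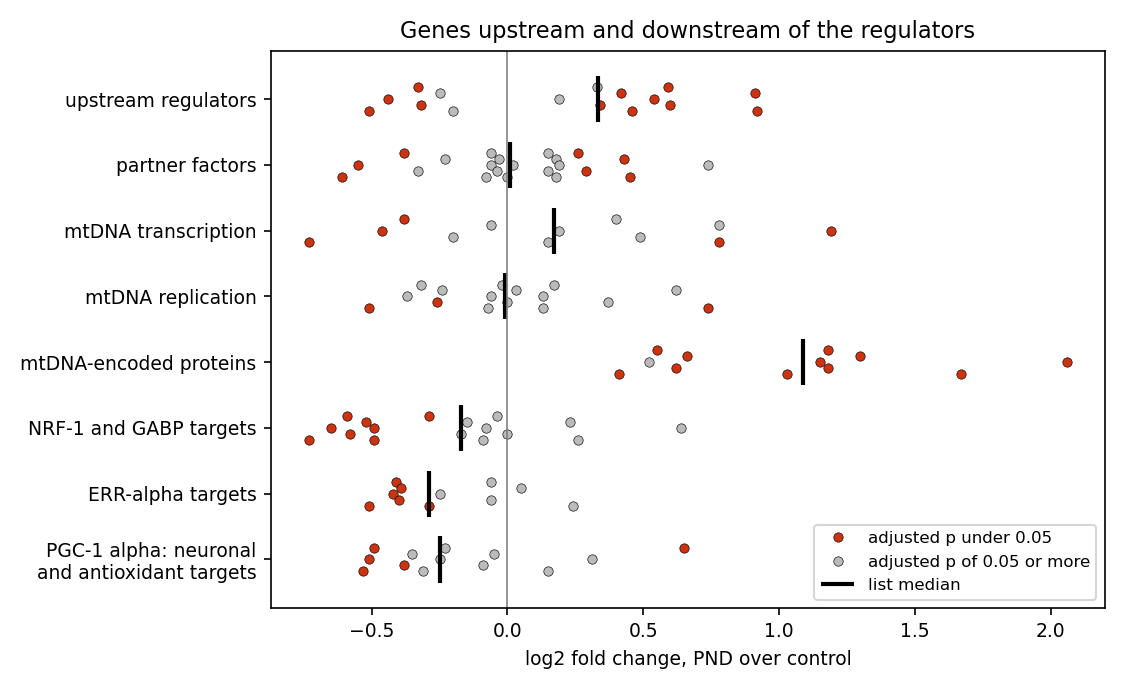
Log2 fold change of PND over control mice for each tested gene of 8 lists around the regulators, with filled red points at an adjusted p under 0.05 (edgeR), grey points for the rest and a black bar at the list median. The mitochondrially encoded transcripts lie to the right of 0 (median 1.09), and the medians of the 3 target lists lie between -0.29 and -0.17.

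The genes whose pattern over the 4 mice was nearest to Ppargc1a, by Euclidean distance of centred log2 CPM among 5036 protein-coding genes of similar level, were Btf3l4 (0.029), Nfyb (0.047) and Erbb4 (0.053). Their log2 fold changes were 0.52, 0.51 and 0.52. For Nrf1, among 4872 genes, they were Ube2l3 (0.012), Ndufaf5 (0.017) and Ppp1r8 (0.020), with log2 fold changes of -0.32, -0.32 and -0.31. Within a distance of 0.2 there were 255 genes for Ppargc1a and 873 for Nrf1, so that with 4 libraries a shared pattern sets few genes apart.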

How the data were processed

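Hippocampal poly(A) RNA of 2 control and 2 PND mice was sequenced in paired ends of 150 nt. The deposited values are the authors' unnormalized counts per gene and mouse, made by read filtering and mapping with HISAT against mm10. The submitters' processing notes list HISAT2 2.1.0, HTSeq 0.6.0, Bowtie2 2.2.3 and TopHat2 without roles, and the use of strand is not given in the sources used here. The table also holds the authors' own comparison (mean level, fold change, p-values), which was not used.

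Counts were tested in R 4.3.3 with edgeR 4.0.16 (filterByExpr at a minimum count of 10, TMM, quasi-likelihood F test, Benjamini-Hochberg over 17144 genes). Alternatives used DESeq2 1.42.0, limma 3.58.1 (voom), other scalings and filters, the replicate number as a block, each mouse left out, and offsets from trends with transcript GC content and length (mgcv 1.9.3, basis 8). Fits with only GC, only length, or no mitochondrial genes were chosen after the data were seen. Each standard error was derived from the F statistic of its log2 fold change. GC contents, lengths and overlaps are from GENCODE M21 (GRCm38). Averaged over genes, replicates differed by more than sampling noise (mean chi-square per gene 13.4 in control and 8.45 in PND mice). Genes of large spread, such as choroid plexus markers, can dominate this mean. Procedures were tested on simulated data. The members and lists were chosen with earlier results of these data known. Named are the members and, from each list around them, the 3 passing genes with the lowest p-values, apart from 1 gene that is not reported here. Polrmt, Gabpb1, Gabpb2, Syt2, Pvalb, Esrrg, Sod2, Cat, Cox7c, Sdhd, Sdha, Atp5b, Fh1, mt-Nd4 and genes sharing sequence with a member were added after their values were seen. So were mt-Co1, mt-Co3, mt-Atp6, mt-Nd3 and mt-Nd4l.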

Additional observations from a re-analysis of the deposited data

How the results depend on the processing

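The 3 regulators called higher and the 1 called lower were also called under library totals only (where Tfam made it 4), DESeq2 size factors, DESeq2, limma-voom, no expression filter, and without any 1 mouse or the mitochondrial genes. With GC and length offsets, and with the GC offset alone, both counts were 0, and the median of the 9 was 0.14. The list genes called higher went from 27 to 1 and 2 and those called lower from 30 to 7 and 10. Over all genes, the share called higher went from 13.1% to 0.491% and 0.689%, and that called lower from 12.8% to 1.06% and 1.76%. The replicate numbers of the labels were run as a block. Deviations of same-numbered mice correlated at 0.224, but there are only 2 pairs, and nothing in the labels ties them, so the number is not taken as a pairing. The replicate block alone changed no call among the 9 (Gabpa 0.93, adjusted p = 0.0029, edgeR). The replicate block with both offsets called 1 regulator higher and 0 lower, at a median of 0.15, and 7 list genes higher and 31 lower. It called 10 of 17 NRF-1 and GABP targets and 8 of 11 ERRα targets lower, against 3 and 3 with the offsets alone. Of all genes, the replicate block with both offsets called 4.27% higher and 9.75% lower, against 0.491% and 1.06% with the offsets alone. At a fold change of 1.5 or 0.67, 0 regulators were lower (Esrra is at 0.675), and 17 and 6 list genes were called. Without mitochondrial genes 16 list genes were higher, since 11 of the 27 belong to that genome. With the length offset alone, 2 regulators were lower (Esrra and Nrf1). Upstream genes called lower went from 4 to 2 without control mouse 2 or PND mouse 2, mitochondrial transcription genes called higher from 2 to 1 without any 1 mouse but PND mouse 2, and replication genes called lower from 2 to 1 without any but PND mouse 1. PGC-1α-dependent genes called higher went from 1 to 0 without control mouse 2 and to 2 without PND mouse 2. Leaving out each mouse in turn, the median of the 9 ran from 0.18, without PND mouse 2, to 0.40, without PND mouse 1. Pprc1 reversed to 0.14 with both offsets or GC alone, 0.15 with the block and offsets, and ran from -0.18 to 0.07 when 1 mouse was left out, the latter without control mouse 1. Tfb1m reversed to -0.02 with both offsets and -0.03 with GC alone or the block and offsets. The adjusted p over the alternatives (edgeR, DESeq2 and limma) ran from 0.0015 to 0.20 for Ppargc1a, 8.3e-06 to 0.11 for Gabpa, 0.00015 to 0.18 for Esrra and 0.0015 to 0.17 for Tfb2m.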

Other observations

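Several nuclear receptors that share PGC-1 coactivators with ERRα were near the limit of what these libraries could show. Esrrb had a mean of 2.54 CPM in control and 2.82 CPM in PND mice, Pparg 1.72 and 1.65 CPM, and Rxrg 4.49 and 5.08 CPM, with standard errors of their log2 fold changes from 0.22 to 0.37. Ppara had 2.05 and 3.44 CPM, a log2 fold change of 0.74 that did not pass (adjusted p = 0.098, edgeR). Perm1, a muscle coactivator regulated by PGC-1 and ERR, was at 7.05 and 7.07 CPM. These 5 genes were chosen after their values were seen.

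The coactivators Ncoa1, Ep300 and Crebbp, which work with PGC-1α at chromatin, had log2 fold changes of -0.04, -0.08 and -0.06 with standard errors of 0.06 to 0.07, and these 3 genes were also picked with their values known. Med1, another partner factor named with its value known, was called higher at 0.26 ± 0.07 (SE) (adjusted p = 0.048, edgeR). With the GC and length trends removed, Med1 was at 0.08.

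Marker genes were counted as higher and lower at an adjusted p under 0.05 (edgeR), where 13.1% and 12.8% of all genes were called, so that counts of 1 in 7 or 8 are near that background. Astrocyte markers had 3 higher and 1 lower of 7, microglia 1 and 0 of 7, oligodendrocytes 0 and 0 of 7, endothelial cells 2 and 0 of 7, neurons 1 and 3 of 8, hippocampus 2 and 3 of 8, nuclear RNA 3 and 1 of 6, choroid plexus 0 and 0 of 6, red blood cells 0 and 0 of 3 tested, and neutrophils 0 and 1 of 4 tested. Of the lists at 0 in both directions, none had a member with an unadjusted p under 0.05, and DESeq2 also called 0. With the GC and length trends removed, edgeR called 1 hippocampal marker lower and 1 nuclear RNA higher, and 0 markers of the other lists, where 1.06% of all genes were called lower and 0.491% higher. At an unadjusted p under 0.05 in that fit, 7.46% of all genes were higher and 14.5% lower. By the same rule, neuronal markers had 0 higher and 3 lower, astrocyte markers 1 and 2, hippocampal markers 1 and 3, nuclear RNA 2 and 0, microglial and endothelial markers 1 and 0 each, and neutrophil markers 0 and 1. The last was Ltf, named after its value was seen, at -1.63 before and -1.60 after removal of the trends (adjusted p = 0.039 and 0.10, edgeR). DESeq2 called 0 neutrophil markers in either direction. The summed levels of red blood cell markers (5.09 to 11.2 CPM) and neutrophil markers (2.07 to 15.6 CPM) were low in every library.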
